A study of Mus musculus with 8 samples.

Results

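Noc2l and its relatives of the NOC family in the mouse, Noc3l, Noc4l and Cebpz, were followed across 8 libraries of embryonic epidermis. The members were chosen by name, as the deleted gene Noc2l (also called Nir) and the nucleolar complex proteins that resemble it or act with it, and are 4 of the 23146 genes in the count files. Each was counted on 1 RefSeq transcript. The libraries, 2 per group, came from knockout embryos with floxed Nir alleles and Krt14-Cre at embryonic stage E15.5, from E15.5 controls with floxed Nir, and from the corresponding knockout and control embryos at E17.5. All groups thus carried floxed Nir, and the labels do not say whether any control carried Cre. The epidermis had been peeled from the dermis before total RNA was sequenced. Krt14 is active in basal keratinocytes, so that cells in which the Krt14 promoter was never active keep their alleles. Strain, sex, litter and the number of embryos per library are not given in the sources. As nothing states that replicates came from separate embryos, the p-values cover no more than the spread among these libraries, some of which may be technical.

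NOC proteins work in the nucleolus, where ribosomal RNA is made, cut and packed with ribosomal proteins. In budding yeast, Noc1 pairs with Noc2 on early precursors of the large ribosomal subunit, Noc2 then pairs with Noc3 on later ones, and Noc4 pairs with Nop14 on precursors of the small subunit. Cebpz is the mammalian relative of Noc1 and was first described as a CCAAT-binding factor. The mammalian Noc2l protein, NIR, is also an inhibitor of histone acetyltransferases (INHAT) that binds p53. The series title gives the aim of learning what Noc2l does in the developing epidermis.

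On the GRCm38 build, Noc2l spans 156234655 to 156247616 of chromosome 4 on the plus strand, and its counted transcript has 2785 bases in 19 exons. Noc3l spans 38788121 to 38820310 of chromosome 19, Noc4l 110648419 to 110653382 of chromosome 5 and Cebpz 78919003 to 78937070 of chromosome 17, each on the minus strand. The counted transcripts have 3977 bases in 21 exons for Noc3l, 2075 bases in 15 exons for Noc4l and 4070 bases in 16 exons for Cebpz. Upstream sequence is shown for 3 members, whose transcript levels are compared between genotypes below and 1 of which shares its upstream stretch with another gene. The promoter sequences used held no entry for Cebpz, so Cebpz is neither shown nor searched for motifs. The first 2 sequences are the 250 bases before a RefSeq start of Noc2l (chr4:156235760-156236009, plus strand) and of Noc3l (chr19:38819238-38819487, minus strand). These starts, at 156236010 and 38819237, lie inside the gene spans given above and not at their ends. A further RefSeq start of Noc2l, at 156236015, is not printed. The last sequence is the whole stretch between the RefSeq starts of Noc4l and its divergent neighbour Ddx51 (chr5:110653383-110653431, minus strand), which is 49 bases long. All are RefSeq sequence of GRCm38.p6, read 5′ to 3′ on the member's strand, and capitals mark the motif matches described next.
Noc2l: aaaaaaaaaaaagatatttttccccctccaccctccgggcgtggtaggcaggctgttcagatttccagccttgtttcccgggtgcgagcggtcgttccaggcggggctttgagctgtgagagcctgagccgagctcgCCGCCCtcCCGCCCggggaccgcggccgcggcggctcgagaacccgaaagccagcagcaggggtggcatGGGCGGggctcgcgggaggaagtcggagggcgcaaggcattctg
Noc3l: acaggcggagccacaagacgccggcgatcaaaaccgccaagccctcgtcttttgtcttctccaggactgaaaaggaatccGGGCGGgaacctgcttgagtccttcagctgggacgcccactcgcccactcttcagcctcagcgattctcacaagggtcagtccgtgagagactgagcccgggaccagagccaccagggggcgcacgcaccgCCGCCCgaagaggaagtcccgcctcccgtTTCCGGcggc
Noc4l and Ddx51: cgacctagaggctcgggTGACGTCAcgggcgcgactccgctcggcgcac

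Each of 6 motifs was searched by its letters on both strands of the 250 bases before each start, namely the GC box (GGGCGG), the ETS core (CCGGAA), the cyclic AMP response element (TGACGTCA), the CCAAT box (CCAAT), the E-box (CACGTG) and the TATA box (TATAAA). Noc2l held 3 GC boxes, Noc3l held 2 GC boxes and 1 ETS core, and Noc4l held 1 GC box and 1 cyclic AMP response element. The response element of Noc4l lies 32 to 25 bases before its start, inside the stretch shared with Ddx51, while its GC box lies outside that stretch. Of 32817 mouse windows of the same length, 32.7% held a GC box, 12.0% an ETS core and 1.55% the response element. The other motifs had no match in these windows and are found in 33.8% (CCAAT box), 6.02% (E-box) and 12.4% (TATA box) of all windows. No matches of different motifs overlapped in the 3 genes.

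The counts used, 1 transcript row per gene, summed to 25226357 to 28895657 per library, and 17835 to 18092 genes had a count. None of the 10 basal or 10 suprabasal keratinocyte markers was at 0 in any library, but their levels differed. Markers of dermal fibroblasts and of other cell types were not at 0 either, so this is no check of the labelled tissue. In knockout libraries the fibroblast markers summed higher than either keratinocyte list, as given below. Krt14, the keratin whose promoter drives Cre, had 422 and 403 CPM (counts per library total, with the totals scaled by TMM, the trimmed mean of M values) in E15.5 knockout and 1651 and 1454 CPM in E15.5 control libraries. At E17.5 it had 509 and 534 CPM in knockout and 1512 and 1626 CPM in control libraries. The counts of Noc2l cover its whole transcript, and no source used here names the floxed exons. Its level is therefore no check of genotype, and each library is called by its label.

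Relative to transcript length, Noc2l was the most abundant member in epidermis and Noc3l the least abundant. Per length, as RPKM (CPM divided by transcript length in kilobases), Noc2l averaged 33.6 ± 1.03 in E15.5 knockout, 36.7 ± 2.35 in E15.5 control, 30.9 ± 0.379 in E17.5 knockout and 40.6 ± 3.84 in E17.5 control epidermis (SD, n = 2 each). Cebpz followed with group means of 13.2 to 17.7 RPKM. Noc4l, the small subunit member, had 8.93 to 13.5 RPKM, and Noc3l 4.96 to 5.67 RPKM. This order by RPKM held in each of the 4 groups with no overlap between libraries of neighbouring genes. By mean CPM, which is not divided by length, Noc4l lay below Noc3l in knockout epidermis. The means were 18.5 against 22.1 CPM at E15.5 and 18.8 against 19.7 CPM at E17.5. In control epidermis Noc4l lay above Noc3l at both ages by mean CPM. In raw counts, Noc2l made up 45.3% to 50.6% of the reads of the 4 members in any library.

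At E15.5, 1 of the 4 members fell in knockout epidermis by edgeR's quasi-likelihood test (Benjamini-Hochberg adjusted p under 0.05), and none rose. Of all 16342 genes tested, 45.5% passed that test, 22.3% as lower in knockout, so 1 in 4 is near the background. The member that fell was Noc4l, which in yeast acts on small subunit precursors. Its level was 18.6 and 18.4 CPM in E15.5 knockout against 26.0 and 21.5 CPM in E15.5 control libraries. Both knockout libraries lay below both controls, with a wider gap between the controls than between the knockouts. The log2 fold change was -0.36 ± 0.13 (SE, n = 2 each; edgeR adjusted p = 0.0401). That call rests on single libraries: without E15.5 control replicate 1 the value was -0.21 (edgeR adjusted p = 0.294), and DESeq2 gave an adjusted p of 0.0593.

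Noc2l itself did not pass the test at E15.5. Its level was 95.6 and 91.6 CPM in knockout against 107 and 97.4 CPM in control libraries, and its log2 fold change was -0.12 ± 0.10 (edgeR adjusted p = 0.335). The groups did not overlap, but the highest knockout library lay close under the lowest control. Cebpz, the Noc1 relative, had 55.7 and 62.8 CPM in knockout against 69.6 and 62.2 CPM in control libraries, with overlap (log2 fold change -0.15 ± 0.11, edgeR adjusted p = 0.284). Noc3l, the late large subunit member, had 20.4 and 23.9 CPM in knockout against 21.6 and 22.7 CPM in control libraries. Its knockout libraries enclosed the controls, and the SE of its log2 fold change was 0.12 around a value near 0 (edgeR adjusted p = 1.0).

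At E17.5, 3 of the 4 members fell in knockout epidermis and none rose, against 53.5% of all genes called and 26.7% called as lower. Noc4l was at 18.0 and 19.7 CPM in knockout against 28.5 and 27.4 CPM in control libraries, a log2 fold change of -0.57 ± 0.13 (edgeR adjusted p = 0.00304) and a ratio of group means of 0.674. Cebpz was at 54.9 and 52.5 CPM in knockout against 76.1 and 67.9 CPM in control libraries (-0.42 ± 0.11, edgeR adjusted p = 0.00691). In both genes every knockout library lay below every control, and for Cebpz the call was lost without E17.5 control replicate 1 (-0.34, edgeR adjusted p = 0.0528).

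The deleted gene was lower by about as much as Cebpz at E17.5. Noc2l had 85.4 and 86.9 CPM in knockout against 106 and 121 CPM in control libraries, so that the knockout mean was 0.762 of the control mean (log2 fold change -0.39 ± 0.10, edgeR adjusted p = 0.00621). The knockout libraries lay close together and the controls apart. Control replicate 2 was the highest of the 8 libraries, and without it the log2 fold change was -0.29 (edgeR adjusted p = 0.0514). Noc3l had 20.2 and 19.3 CPM in knockout against 22.7 and 22.4 CPM in control libraries, again with no overlap, but its log2 fold change of -0.19 ± 0.12 missed the threshold (edgeR adjusted p = 0.206). With libraries scaled by their totals alone it passed the threshold (-0.41, edgeR adjusted p = 0.0241), under a scaling that moved the median of all genes to -0.23. Relative to that median the value of Noc3l was -0.17 under either scaling.

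**Figure D1:**
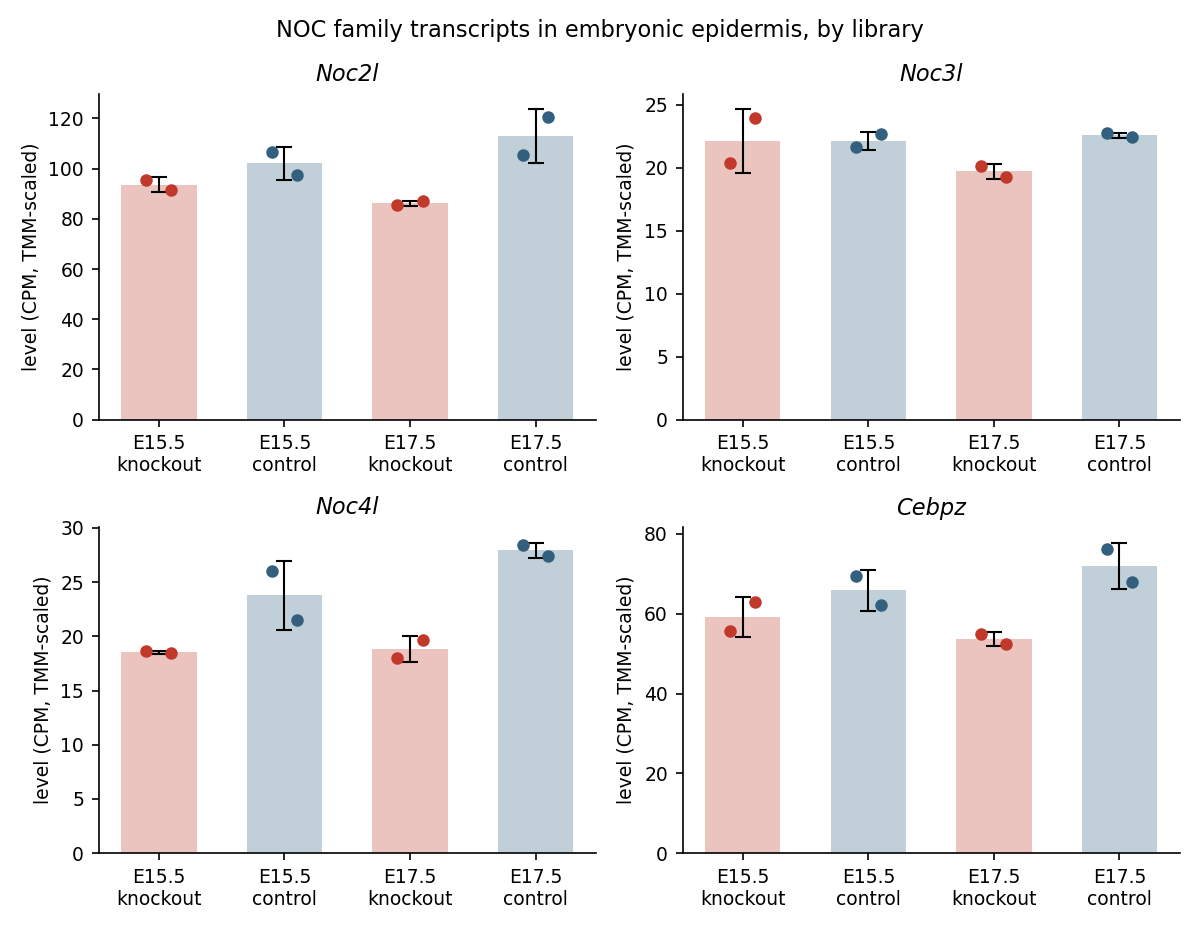
Level of each NOC gene in CPM (linear axes from 0) in the 4 groups; points are libraries, bars are group means and error bars are the SD of 2 libraries. At E17.5 the knockout libraries lie below the control libraries for all 4 genes, although Noc3l was not called, while at E15.5 Noc3l and Cebpz overlap. The share of all genes without overlap was not counted, so the lack of overlap in these 4 genes cannot be set against a background. The 26.7% of all genes that edgeR called as lower at E17.5 is another measure and no like comparison.

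The difference between the knockout effects at E17.5 and at E15.5 was called for 0 of the 4 members, against 4.35% of all genes. None passed at an unadjusted p under 0.05 in edgeR, and DESeq2 and limma-voom also called 0. The differences in log2 fold change were -0.27 ± 0.14 for Noc2l, -0.19 ± 0.17 for Noc3l, -0.21 ± 0.18 for Noc4l and -0.27 ± 0.16 for Cebpz, with edgeR adjusted p-values of 0.365 to 0.636. The larger falls at E17.5 are therefore not shown to differ from the values at E15.5.

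Age alone moved none of the members past the test. In control epidermis, E17.5 against E15.5 gave log2 fold changes of 0.15 ± 0.10 for Noc2l, 0.03 ± 0.12 for Noc3l, 0.23 ± 0.13 for Noc4l and 0.13 ± 0.11 for Cebpz, so that 0 of 4 were called by edgeR against 10.9% of all genes. Of these, only Noc4l had control libraries that did not overlap between the ages. In knockout epidermis the same comparison gave -0.12 ± 0.10 for Noc2l, -0.17 ± 0.12 for Noc3l, 0.02 ± 0.13 for Noc4l and -0.14 ± 0.11 for Cebpz, and edgeR again called 0 of 4, against 13.1% of all genes. In both age comparisons the count of members was also 0 at an unadjusted p under 0.05 and with DESeq2 and limma-voom. Ordered by mean CPM, each gene was highest in E17.5 control epidermis, then in E15.5 control epidermis. Those neighbouring groups overlapped for Noc2l, Noc3l and Cebpz and not for Noc4l. The lowest level was in E17.5 knockout epidermis for Noc2l, Noc3l and Cebpz, and in E15.5 knockout epidermis for Noc4l, whose knockout groups overlapped.

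The proteins that join NOC members in yeast were set beside them. These are Pdcd11, the relative of Rrp5, which joins early large and small subunit precursors, Nop14, the partner of Noc4, and Emg1, a methyltransferase that binds Nop14. At E15.5 edgeR called 0 of these 3 genes (1 had an unadjusted p under 0.05, and DESeq2 and limma-voom called 0), against 45.5% of all genes. At E17.5 it called 2 of 3, both lower in knockout, against 26.7% of all genes called as lower. Emg1 had 46.3 and 49.8 CPM in E17.5 knockout against 59.4 and 67.5 CPM in E17.5 control libraries (log2 fold change -0.40 ± 0.10, edgeR adjusted p = 0.00669). Nop14 had 31.5 and 32.2 CPM in knockout against 40.4 and 38.9 CPM in control libraries (-0.32 ± 0.11, edgeR adjusted p = 0.0357). Neither gene's groups overlapped. Pdcd11 had 48.7 and 46.3 CPM in knockout against 51.0 and 48.8 CPM in control libraries and was not called (-0.07 ± 0.11, edgeR adjusted p = 0.616). The count of 2 became 0 without E17.5 control replicate 2, and 1 with DESeq2 or without any 1 of the 3 other E17.5 libraries.

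**Figure D2:**
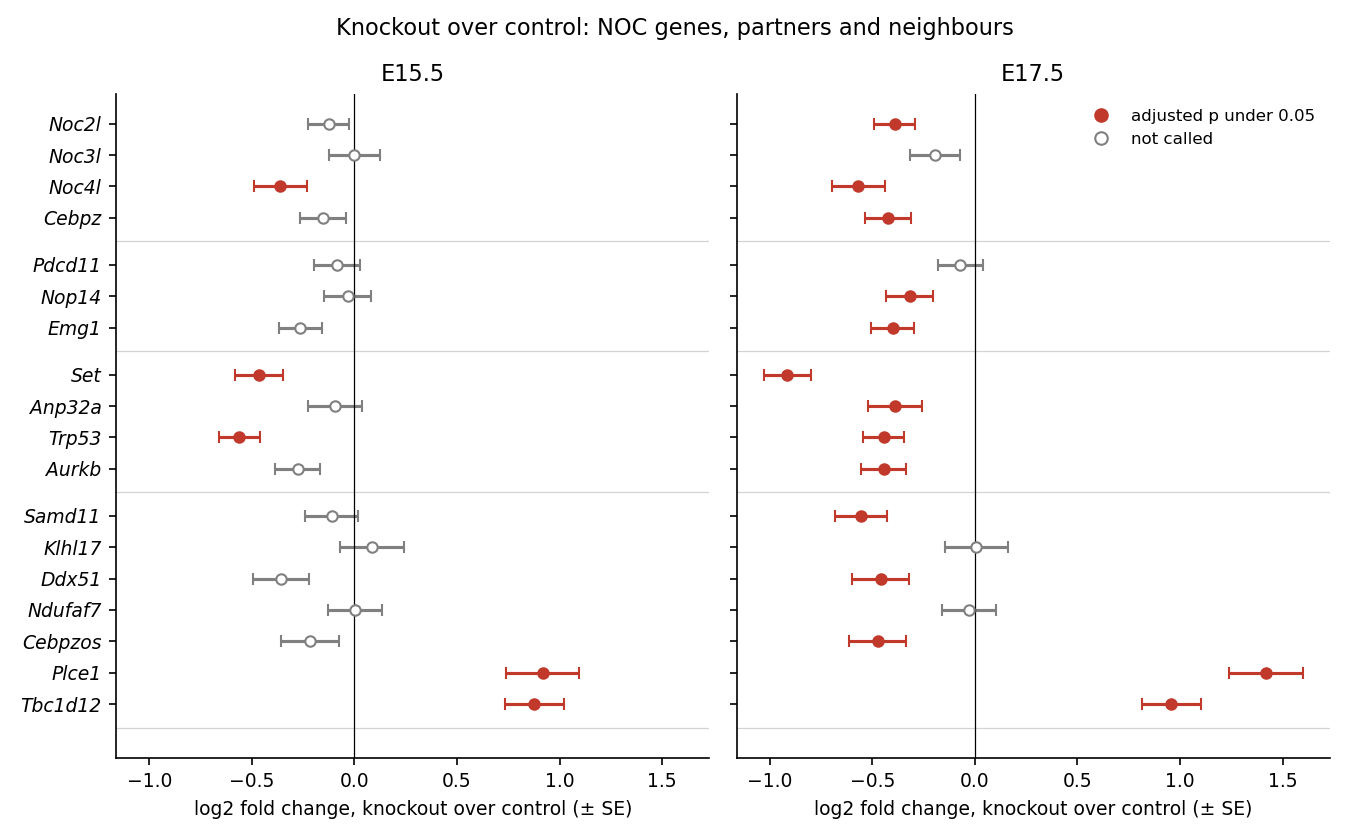
Log2 fold change of knockout over control with its SE at E15.5 (left) and E17.5 (right) for the NOC genes, their yeast partners, INHAT genes with p53 and Aurora B, and chromosomal neighbours; filled points passed the edgeR test. Noc2l, Noc4l and Cebpz are filled at E17.5, Noc4l alone of the NOC genes at E15.5, and Plce1 and Tbc1d12 lie to the right of 0 at both stages. Trp63, Trp73 and the neighbour Plekhn1, which fell further than any gene drawn, are not shown.

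The NOC genes were next placed among the factors that build the ribosomal subunits. These lists share genes with others described here. Nop14 and Emg1 are in the small subunit list, and Pdcd11 and the Noc4l neighbour Ddx51 are in the large subunit list. Of 45 genes of the small subunit processome, 17 fell in E15.5 knockout epidermis and 29 in E17.5 knockout epidermis, with median log2 fold changes of -0.27 and -0.38. Of 48 large subunit assembly genes, 15 fell at E15.5 and 36 at E17.5, with medians of -0.26 and -0.44. Of all genes, 22.3% fell at E15.5 and 26.7% at E17.5. None of the 93 genes rose at either stage in this fit, and the medians of all genes tested were -0.0047 at E15.5 and -0.023 at E17.5. With some other settings, 1 small subunit gene was called as risen at E17.5. These were DESeq2 size factors, a filter of 1 CPM in 2 libraries, and the replicate number as a block. The E15.5 counts leaned on single libraries. Without E15.5 control replicate 1 they were 4 small subunit and 0 large subunit genes, without knockout replicate 1 they were 10 and 9, and without knockout replicate 2 they were 9 and 6. At E17.5 the counts were 18 and 22 without knockout replicate 1.

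Among small subunit genes, Wdr46, relative of a yeast processome subunit, had 22.0 and 18.4 CPM in E15.5 knockout against 33.7 and 35.0 CPM in E15.5 control libraries (log2 fold change -0.76 ± 0.13, edgeR adjusted p = 7.15e-04). Utp14a (-0.58 ± 0.12) and Nol10 (-0.47 ± 0.12) also fell at E15.5. At E17.5 the falls with the smallest adjusted p were those of Nop58 (-0.93 ± 0.10), Nop56 (-0.88 ± 0.11) and Wdr46 (-1.03 ± 0.13), of which Nop58 and Nop56 are core proteins of box C/D small nucleolar ribonucleoproteins. Nop58 had 59.8 and 59.4 CPM in E17.5 knockout against 112 and 115 CPM in E17.5 control libraries.

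On the large subunit side, Senp3 (-0.47 ± 0.11), a nucleolar SUMO protease, Bop1 (-0.55 ± 0.14), which acts in processing of the large subunit rRNA, and the GTPase gene Gtpbp4 (-0.40 ± 0.11) fell at E15.5. Wdr74 (-0.82 ± 0.12), Rsl1d1 (-0.60 ± 0.10) and Mak16 (-0.64 ± 0.12) fell at E17.5. Rsl1d1 had 59.1 and 58.4 CPM in E17.5 knockout against 89.5 and 88.5 CPM in E17.5 control libraries, with no overlap.

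Within these 93 genes, Noc4l sat on the lower side and Noc3l on the upper side. At E15.5, 22 of the 93 had a lower log2 fold change than Noc4l, 67 a lower one than Cebpz, 71 a lower one than Noc2l and 87 a lower one than Noc3l. At E17.5 the numbers were 23 for Noc4l, 43 for Cebpz, 49 for Noc2l and 79 for Noc3l. Noc2l was thus close to the middle of the list at E17.5.

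**Figure D3:**
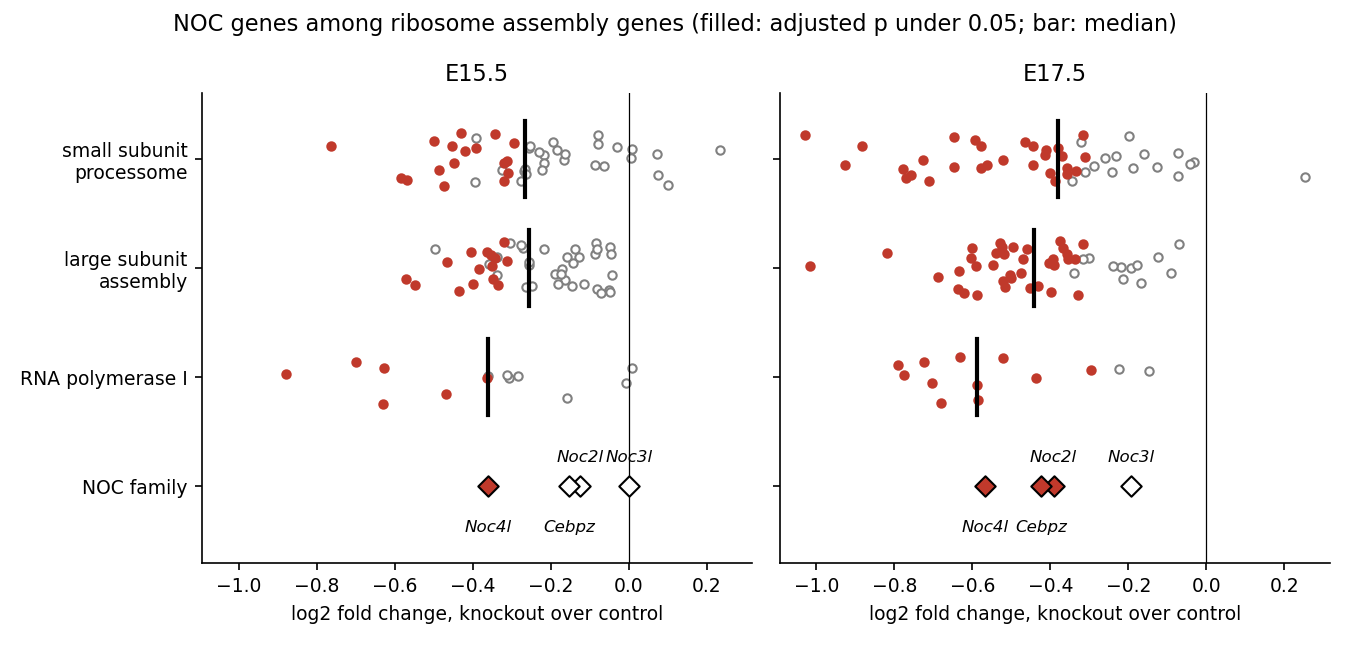
Log2 fold change of knockout over control for each gene of 3 ribosome assembly lists (points, filled where edgeR called them; vertical bars, list medians) and for the NOC genes (diamonds), at E15.5 and E17.5. At E17.5 Noc2l and Cebpz lie near the medians of -0.38 and -0.44 of the 2 subunit lists, Noc4l lies lower and Noc3l higher.

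A ratio of counts within a library does not depend on how libraries are scaled. It does depend on the assembly genes, which were themselves lower in knockout. Large subunit genes summed to 1811 to 1836 CPM in E15.5 knockout against 2046 to 2235 CPM in E15.5 control libraries. At E17.5 they summed to 1710 to 1782 CPM in knockout against 2263 to 2325 CPM in control libraries, and small subunit sums were lower too. A higher ratio is thus by itself no higher level of the member. Per 1000 counts of the 93 assembly genes, Noc2l had 28.0 and 27.2 in E15.5 knockout against 25.8 and 25.7 in E15.5 control libraries, and 26.7 and 26.2 in E17.5 knockout against 24.4 and 28.4 in E17.5 control libraries. The E15.5 knockout libraries lay above their controls, and the E17.5 groups overlapped. Noc4l had 5.45 and 5.48 in E15.5 knockout against 6.29 and 5.67 in E15.5 control libraries, and 5.62 and 5.92 in E17.5 knockout against 6.57 and 6.47 in E17.5 control libraries, lower in knockout without overlap at both ages. Noc3l had 6.30 and 5.81 in E17.5 knockout against 5.25 and 5.28 in E17.5 control libraries, higher in knockout, and its E15.5 values of 5.96 and 7.11 in knockout and 5.22 and 5.97 in control libraries overlapped. Cebpz overlapped at both ages. With 2 libraries against 2, the smallest p of a two-sided exact permutation test is 0.333, so no test was run on these ratios.

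**Figure D4:**
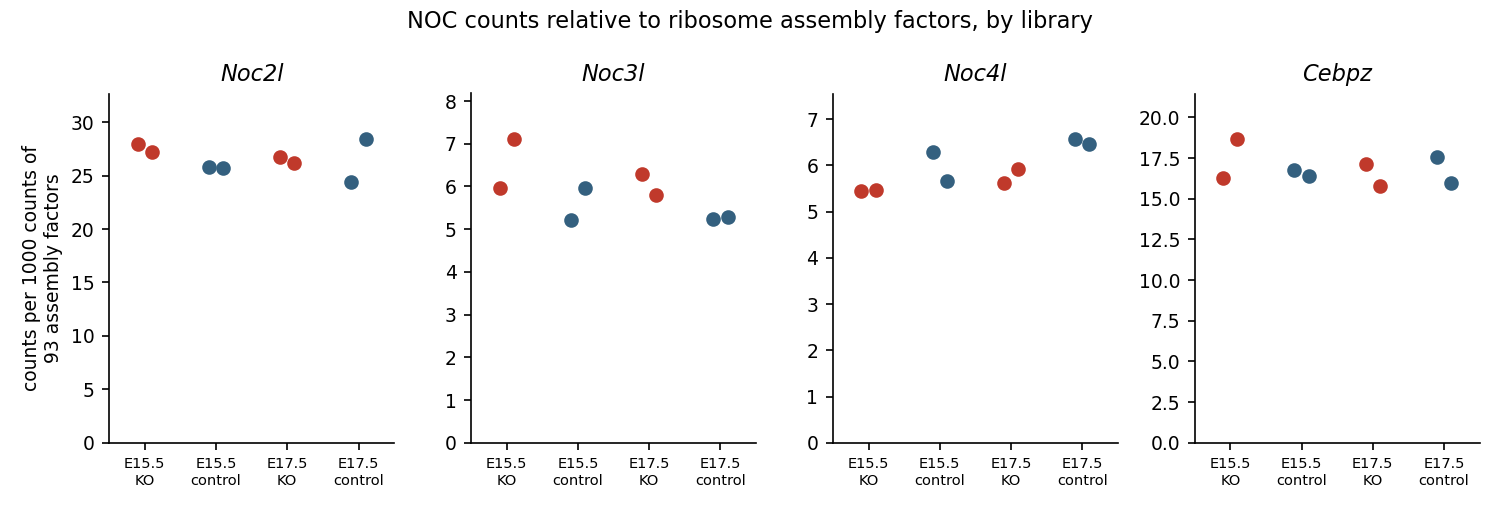
Counts of each NOC gene per 1000 counts of the 93 ribosome assembly genes in each library (points; axes start at 0), for knockout (KO) and control epidermis. The ratio of Noc4l is lower in knockout at both ages, and the E17.5 groups of Noc2l and Cebpz overlap. The ratio of Noc3l is higher in knockout at E17.5, where its CPM is lower and the assembly genes are lower too.

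Genes for other INHAT subunits and for proteins that NIR binds were measured in the same libraries. Of 6 genes, 4 fell at E15.5 and 6 at E17.5 by edgeR, against 22.3% and 26.7% of all genes at these ages. Set, which encodes an INHAT subunit, had 74.7 and 93.1 CPM in E15.5 knockout against 120 and 111 CPM in E15.5 control libraries (log2 fold change -0.46 ± 0.12, edgeR adjusted p = 0.00669). At E17.5 it had 73.2 and 80.0 CPM in knockout against 141 and 147 CPM in control libraries (-0.91 ± 0.12, edgeR adjusted p = 5.14e-05). Both ages showed no overlap for Set, and its fall at E17.5 was the larger in value, although the difference missed the threshold (-0.45 ± 0.16, edgeR adjusted p = 0.165). Anp32a, the gene of another INHAT subunit, had log2 fold changes of -0.09 ± 0.13 at E15.5 (edgeR adjusted p = 0.594) and -0.39 ± 0.13 at E17.5 (edgeR adjusted p = 0.0263).

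Trp53, which encodes p53, fell at E15.5 (-0.56 ± 0.10) and E17.5 (-0.44 ± 0.10), and its relatives Trp63 (-3.67 ± 0.16 and -4.33 ± 0.17) and Trp73 (-4.53 ± 0.19 and -6.06 ± 0.23) fell much further at these ages. Trp63 is a regulator of epidermal fate that is expressed in basal keratinocytes. Aurkb, which encodes the mitotic kinase Aurora B, had -0.28 ± 0.11 at E15.5 (edgeR adjusted p = 0.0606) and -0.44 ± 0.11 at E17.5 (edgeR adjusted p = 0.00542).

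Neighbouring genes show which values could share reads or an upstream region with a member. Samd11 lies on the strand opposite Noc2l, and its exons share 598 bases with the Noc2l transcript, which is 21.5% of its length. No source used here gives the strand setting of the counting, so reads in the shared bases cannot be assigned with certainty. Samd11 had 21.7 and 20.1 CPM in E17.5 knockout against 27.4 and 33.9 CPM in E17.5 control libraries, and fell with a log2 fold change of -0.56 ± 0.13 (edgeR adjusted p = 0.00342). At E15.5 its value was -0.11 ± 0.13 (edgeR adjusted p = 0.510). Samd11 counts were 23.1% to 28.1% of Noc2l counts over the 8 libraries. Beside this, the ratio of Noc2l counts to those of Cebpz, on another chromosome, was 1.39 to 1.78. On the start side of Noc2l, RefSeq places Klhl17 (156229044 to 156234857) and beyond it Plekhn1 (156221456 to 156228542), while GENCODE gives both stretches to Plekhn1. The RefSeq span of Noc2l begins at 156234655 and so overlaps that of Klhl17. Shared exon bases were not counted for this pair. Klhl17 had 0.09 ± 0.15 at E15.5 and 0.01 ± 0.15 at E17.5 and was not called. Plekhn1 had 67.9 and 83.0 CPM in E15.5 knockout against 193 and 226 CPM in E15.5 control libraries, and 14.4 and 17.2 CPM in E17.5 knockout against 116 and 89.5 CPM in E17.5 control libraries. It fell at both ages without overlap, by more than Noc2l in value (-1.47 ± 0.15, edgeR adjusted p = 1.42e-05, and -2.70 ± 0.16, edgeR adjusted p = 1.50e-07). Plekhn1 was added as a neighbour after its values had been seen.

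**Figure D5:**
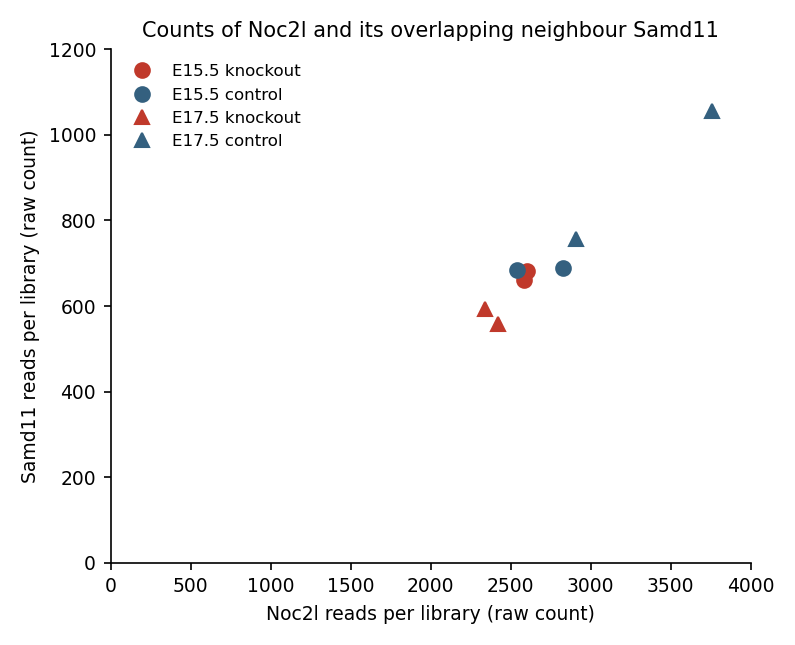
Raw counts of Samd11 against raw counts of Noc2l in the 8 libraries (linear axes from 0; knockout red, control blue; circles E15.5, triangles E17.5). Samd11 counts are 23.1% to 28.1% of Noc2l counts, and E17.5 control replicate 2 is the highest in both.

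Ddx51, an RNA helicase gene of large subunit assembly with 49 bases between its start and that of Noc4l, read the other way, had 16.4 and 16.1 CPM in E17.5 knockout against 24.9 and 19.9 CPM in E17.5 control libraries. It fell at E17.5 (-0.46 ± 0.14, edgeR adjusted p = 0.0148), and its E15.5 value of -0.36 ± 0.14 did not pass (edgeR adjusted p = 0.0523). Both genes flanking the shared stretch printed above were thus lower at E17.5. Cebpz has a divergent neighbour too, Ndufaf7, a gene for assembly of mitochondrial complex I, with 35 bases between their starts. Ndufaf7 was not called at E15.5 (0.0038 ± 0.13) or E17.5 (-0.03 ± 0.13), so the pair did not share the fall of Cebpz at E17.5. The other end of Cebpz shares 171 bases, 4.20% of its transcript, with Cebpzos on the opposite strand. Cebpzos had -0.22 ± 0.14 at E15.5 (edgeR adjusted p = 0.235) and -0.47 ± 0.14 at E17.5 (edgeR adjusted p = 0.0143). It was added as a neighbour after the values had been seen.

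Noc3l differed from the genes on its sides. Plce1, a phospholipase gene, rose with log2 fold changes of 0.92 ± 0.18 at E15.5 and 1.42 ± 0.18 at E17.5, and Tbc1d12, of the TBC domain family, rose with 0.88 ± 0.14 and 0.96 ± 0.14 at these ages. Of all genes, 23.2% rose at E15.5 and 26.7% at E17.5.

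The genes whose log2 CPM followed each member most closely over the 8 libraries were listed among 13573 genes, as a description in which all points share library, genotype and age. Nearest to Noc2l by Pearson r were Cox11 (0.988), a copper chaperone gene of cytochrome oxidase assembly, the flap endonuclease gene Fen1 (0.983), Arhgap33 (0.981), the histone co-chaperone gene Dnajc9 (0.979) and the augmin subunit gene Haus5 (0.975). The other members were less close: Noc4l ranked 484 with r of 0.878, Cebpz 1894 with 0.779 and Noc3l 5089 with 0.483. Noc4l was followed most closely by Eif3b (0.987), a translation initiation factor gene, Lonrf1 (0.987) and Tmtc4 (0.986). Cebpz was nearest to the RNA helicase gene Ddx20 (0.981), the cohesin gene Rad21 (0.980) and Gpkow (0.977), and Noc3l to Zc3h11a (0.978), Zfp322a (0.957) and Ankrd12 (0.950).

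Summed markers of several cell types differed between the genotypes, beside every NOC value above. Basal keratinocyte markers fell in 9 of 10 genes at each age, while the tenth, Dst, was not called at E15.5 (0.23 ± 0.13) and rose at E17.5 (0.58 ± 0.13). They summed to 2240 to 2274 CPM in E15.5 knockout against 7217 to 7704 CPM in E15.5 control libraries, and to 1446 to 1468 CPM in E17.5 knockout against 7779 to 7790 CPM in E17.5 control libraries. All 10 suprabasal markers fell at both ages. They summed to 6174 to 6438 CPM in E15.5 knockout against 89113 to 94357 CPM in E15.5 control libraries, and to 1182 to 1356 CPM in E17.5 knockout against 43532 to 57221 CPM in E17.5 control libraries.

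Markers of other cells were higher in knockout. Dermal fibroblast markers rose in 10 of 10 genes at E15.5 and 9 of 10 at E17.5, with sums of 77568 to 96048 CPM in E15.5 knockout against 31357 to 33343 CPM in E15.5 control libraries, and of 98347 to 103948 CPM in E17.5 knockout against 27205 to 31432 CPM in E17.5 control libraries. Erythroid markers rose in 8 of 9 genes at E15.5 and 7 of 9 at E17.5, with 1 fallen at each age, and summed to 42281 to 76173 CPM in E15.5 knockout against 7565 to 10654 CPM in E15.5 control and to 33700 to 35624 CPM in E17.5 knockout against 2981 to 3237 CPM in E17.5 control libraries. All 8 endothelial and all 7 myeloid markers measured rose at both ages. Endothelial markers summed to 798 to 822 CPM in E15.5 knockout against 485 to 494 CPM in E15.5 control libraries, and to 769 to 794 CPM in E17.5 knockout against 434 to 448 CPM in E17.5 control libraries. Myeloid markers summed to 698 to 702 CPM in E15.5 knockout against 313 to 319 CPM in E15.5 control libraries, and to 1107 to 1233 CPM in E17.5 knockout against 325 to 335 CPM in E17.5 control libraries. No marker of any list was at 0 in any library. The part of these cell types in the NOC values was not tested, and in bulk RNA fewer cells of a type and less RNA per cell cannot be told apart.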

How the data were processed

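The authors aligned the reads to mm10 with TopHat2 (version 2 per the submitters' processing notes), counted them with HOMER and tested them with edgeR, per the series design text. HOMER settings, strand, read length and multi-mapping: not given in the sources used here. The deposited values are raw counts per RefSeq transcript, with no normalization. Of 30521 transcripts, 29908 were named from the RefSeq table of GRCm38.p6 and 182 from GENCODE M21. The 431 unnamed ones held 2.08% of counts and were left out. A gene with several transcripts was represented by the one with the largest total. The 2 series tables, with 8 columns that name no sample, were not used.

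Counts were tested with edgeR 4.0.16 in R 4.3.3 (filterByExpr, TMM, quasi-likelihood, 4 groups, 8 libraries) and adjusted over 16342 genes, with a threshold of 0.05. The SE is the absolute log2 fold change over the square root of F. RPKM used the lengths of GENCODE M21 transcripts paired with the RefSeq ones. The procedure was tested on simulated counts with 200 changed genes. Those were far fewer genes than were called in the data, with larger changes than those of the members. The simulation therefore does not show power at the members' changes, or the scaling when many genes change. Named were all members, partners, INHAT genes and listed neighbours (with Cebpzos and Plekhn1 added later), up to 3 called genes per assembly list by adjusted p, and the 5 (Noc2l) or 3 closest genes by Pearson r, among genes at a mean log2 CPM of 1 or more. Members and lists were chosen with earlier results of these data known. Alternatives were other size factors, other filters, DESeq2 1.42.0, limma-voom (limma 3.58.1), other handling of transcript rows, only the groups compared, a replicate block and leaving out each library.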

Additional observations from a re-analysis of the deposited data

Results flagged for a closer look

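The fall of Trp73, which encodes the p53 relative p73, differed between the ages by the test of the difference itself. Trp73 had 1.18 and 1.23 CPM in E15.5 knockout against 30.8 and 25.1 CPM in E15.5 control libraries, and 0.329 and 0.503 CPM in E17.5 knockout against 26.9 and 29.3 CPM in E17.5 control libraries. The log2 fold change was lower at E17.5 than at E15.5 by a difference of -1.53 ± 0.34 (edgeR adjusted p = 0.0268). The E17.5 knockout values are near the floor of the counts, so this difference rests on few reads. Over the 16 alternatives that give 1 value per gene, that difference was -1.88 to -1.28, and it was called in 10 of them (adjusted p 0.0108 to 0.157). It was not called by limma-voom (adjusted p = 0.157), and not without E15.5 control replicate 2, E15.5 knockout replicate 1 or 2, E17.5 control replicate 2 or E17.5 knockout replicate 1 (edgeR adjusted p of 0.0571 to 0.143).

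Plekhn1, the neighbour of Noc2l, Nop58, of the small subunit list, and Taf1d, of the RNA polymerase I list, also differed between the ages, where 4.35% of all genes were called. Nop58 and Taf1d were looked at for being among the genes of their lists with the smallest edgeR adjusted p at E17.5. Plekhn1 was added after its values had been seen. The share of all genes is therefore no like comparison for these genes. Plekhn1 had a difference of -1.23 ± 0.22 (edgeR adjusted p = 0.00863) and was called in all 16 alternatives (-1.44 to -1.03). Nop58 had -0.63 ± 0.14 (edgeR adjusted p = 0.0229), was called in 11 of 16 and lost the call without E15.5 control replicate 2, E15.5 knockout replicate 2, E17.5 control replicate 2 or either E17.5 knockout library (edgeR adjusted p of 0.0614 to 0.10). Taf1d had -0.78 ± 0.18 (edgeR adjusted p = 0.0315), was called in 9 of 16 and lost the call with summed transcript rows (edgeR adjusted p = 0.0524) and without any 1 of 6 libraries, E15.5 knockout replicate 1 and E17.5 knockout replicate 1 being the exceptions.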

How the results depend on the processing

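The falls of Noc4l, Noc2l and Cebpz at E17.5 kept their direction under all 18 alternatives, with log2 fold changes of -0.78 to -0.53, -0.60 to -0.29 and -0.63 to -0.34. Noc4l stayed past the threshold in all 18, and Noc2l and Cebpz in 17 each, the exceptions being the left-out control libraries given with their values above. At E15.5 the count of members called, 1, became 0 with library totals only, the DESeq2 test and only the groups compared, and ranged from 0 to 1 as single libraries were left out. Noc4l at E15.5 had edgeR adjusted p-values of 0.0538 with library totals only, 0.0539 with only the groups compared, 0.116 without E15.5 knockout replicate 1, 0.133 without its replicate 2 and 0.0513 when E17.5 knockout replicate 2 was left out, within a range of 0.0251 to 0.294 over its alternatives. The causes were not tested. No called value of a member changed sign. Values that passed no test and lay near 0 did, with Noc3l at E15.5 between -0.12 and 0.11, Noc3l for age in control epidermis between -0.0045 and 0.22, and Noc4l for age in knockout epidermis between -0.05 and 0.08.

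Over all genes, leaving out single libraries gave 377 to 716 calls for the difference between the knockout effects (711 with all libraries, 442 without E15.5 control replicate 1, 398 without E15.5 control replicate 2, 377 without E15.5 knockout replicate 2 and 419 without E17.5 knockout replicate 1). It gave 666 to 1776 for age in control epidermis (1774 with all, 666 and 697 without E15.5 or E17.5 control replicate 2), and 1160 to 2256 for age in knockout epidermis (2142 with all, 1192 without E15.5 knockout replicate 2 and 1160 without E17.5 knockout replicate 1). Scaling by library totals moved the share of called genes that rose to 34.4% against 50.0% for knockout against control at E17.5, to 17.8% against 43.3% for the difference, and to 66.1% against 29.0% for age in control epidermis, so that the majority of calls there was higher instead of lower. It shifted the medians of all genes there to -0.23, -0.21 and 0.19.

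No source used here says whether same-numbered libraries were paired, and the main fit treats them as unpaired. Over all genes, the deviations of same-numbered libraries correlated at 0.043 at E15.5 and -0.070 at E17.5. Such a correlation cannot show whether they shared a litter or their handling. With the replicate number as a block, the calls of the 4 members were those of the fit without it (1 at E15.5, 3 at E17.5), and genes called were 7658 at E15.5, 8958 at E17.5, 1006 for the difference, 2072 for age in control and 2479 for age in knockout epidermis. With 2 libraries per group the precision of each value rests on a spread shared over all genes and groups.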

Other observations

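RNA polymerase I makes the rRNA precursor on which NOC proteins act, and its genes were described beside those of the NOC family. Of 16 listed genes, 13 were matched and tested. In knockout epidermis 6 of 13 fell at E15.5 and 11 of 13 at E17.5 by edgeR, against 22.3% and 26.7% of all genes. None rose, and the median log2 fold changes were -0.36 and -0.59. Polr1d, a subunit shared with RNA polymerase III, had 26.5 and 26.2 CPM in E15.5 knockout against 46.5 and 50.5 CPM in E15.5 control libraries (-0.88 ± 0.10, edgeR adjusted p = 4.12e-05). Taf1c (-0.70 ± 0.13), of the factor that places the polymerase on its promoter, and Tcof1 (-0.63 ± 0.12), the nucleolar protein treacle, also fell at E15.5. At E17.5 the smallest adjusted p-values were those of Polr1d (-0.68 ± 0.10), Taf1d (-0.79 ± 0.13) and the subunit gene Polr1b (-0.73 ± 0.13). Taf1d had 23.7 and 19.9 CPM in E17.5 knockout against 38.8 and 36.6 CPM in E17.5 control libraries, and 25.5 and 29.3 CPM in E15.5 knockout against 27.9 and 27.3 CPM in E15.5 control libraries. The part of the other cell types, whose summed marker levels differed between the genotypes as given above, was not tested.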
